A study of Mus musculus with 7 samples.

Results

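The genes described here drive DNA replication and mitosis, and they were followed in injured mouse retina that had received Tppp3 AAV2 or control AAV2. They are 37 named symbols, each with a row of its own among the 25655 genes of the count table. They were taken by name, with earlier results of these data known. By role they comprise 16 replication genes, 7 cyclins and kinases of the step from G1 into S phase, and 14 mitotic genes. The tissue was whole retina of wild-type C57BL/6 mice, taken at day 2 after a crush of the optic nerve, an injury that severs the axons of retinal ganglion cells. The Tppp3 AAV2 group had received an adeno-associated viral vector for overexpression of Tppp3, a tubulin polymerization-promoting protein, and the control AAV2 group a CMV-control vector of the same serotype. Neither the promoter of the Tppp3 vector nor the age of the animals is given in the sources used here. Every retina in both groups carried the crush and a vector, so that neither uninjured nor vector-free retina enters the comparison.

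Each division begins when D-type cyclins with Cdk4, and then E-type cyclins with Cdk2, release the E2F transcription factors, which switch on the genes of DNA synthesis. The Mcm2 to Mcm7 proteins form the ring helicase that Cdc6 and Cdt1 load onto DNA, and Cdc45 and the GINS complex activate it. Cyclin B with Cdk1 then starts mitosis, whose genes are switched on late in the cycle through short promoter elements called CHR. Neurons of the mature retina have left the cell cycle, whereas microglia, endothelial cells and other non-neuronal cells can divide, so transcripts found mainly in dividing cells are scarce in this tissue. In whole retina, fewer cells of a type and less RNA per cell cannot be told apart.

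The comparison rested on 3 Tppp3 AAV2 and 3 control AAV2 libraries. They held 19961359 to 21843892 counts with Tppp3 AAV2 and 10961443 to 16218074 counts with control AAV2, so that depth and group cannot be told apart on raw counts. Levels are therefore also given as CPM, counts scaled by TMM to a common library size. Tppp3 had 1057, 809 and 881 counts with its vector, against 212, 362 and 310 in control retinas, a log2 fold change of 0.94 ± 0.20 (SE). Its adjusted p was 0.639 in edgeR's quasi-likelihood test and ranged from 1.3e-05, in DESeq2's Wald test, to 0.907 over all settings. An exact permutation test, two-sided, gave p = 0.1, the smallest that 3 against 3 libraries allow. The retinal label was checked on markers of ganglion cells, such as Rbpms and Nefl, which summed over 11 genes to 740 to 858 CPM with Tppp3 AAV2 and 794 to 809 CPM in control retinas. Nothing in the labels says that the libraries came from separate animals, so p-values measure the spread between these samples.

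Promoter sequences were searched for E2F and CHR motifs, which are already tied to these roles. A difference between the roles is therefore no independent result, and it does not bear on the vector. RefSeq's table of 300-base windows on the mouse build GRCm38.p6, from 250 bases before to 50 after each start, held 29 of the 37 genes. E2F motifs were searched as TTTCCCGC, TTTGGCGC, TTTCGCGC and TTTGCCGC and the CHR motif as TTTGAA and TTCGAA, on both strands. An E2F match stood in 6 of 13 replication genes (Mcm3, Mcm5, Mcm6, Mcm7, Cdc6 and Cdt1) and in 1 of 12 mitotic genes (Cdk1), against 2.6% of 27025 genes. A CHR match stood in 10 of 12 mitotic genes and in 3 of 13 replication genes (Mcm2, Mcm7 and Cdc45), against 21.7% of all genes. The mitotic genes without one were Ccnb1 and Birc5. The CCAAT motif stood in 11 of 12 mitotic genes and 10 of 13 replication genes, against 41.1% of all genes. Of the 4 G1/S genes with a window, Cdk2 had an E2F match and none had a CHR match. Such matches describe letters and not bound sites.

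Mcm2 is shown as the member with the smallest p, Mcm5 and Mcm6 as replication genes with E2F matches, and Cdk1, Mki67 and Top2a as mitotic genes with CHR matches. Each line gives the 200 bases before the start, 5′ to 3′ on the gene's strand, with E2F and CHR matches in capitals. The regions are chr6:88898781-88898980 on the minus strand for Mcm2, chr8:75109309-75109508 on the plus strand for Mcm5 and chr1:128359706-128359905 on the minus strand for Mcm6. Those of Cdk1, Mki67 and Top2a, all on the minus strand, are chr10:69352913-69353112, chr7:135716380-135716579 and chr11:99024190-99024389.
Mcm2: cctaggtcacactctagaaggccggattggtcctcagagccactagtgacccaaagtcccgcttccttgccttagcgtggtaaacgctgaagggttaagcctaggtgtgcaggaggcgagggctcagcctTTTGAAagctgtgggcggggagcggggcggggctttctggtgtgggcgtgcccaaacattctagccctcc
Mcm5: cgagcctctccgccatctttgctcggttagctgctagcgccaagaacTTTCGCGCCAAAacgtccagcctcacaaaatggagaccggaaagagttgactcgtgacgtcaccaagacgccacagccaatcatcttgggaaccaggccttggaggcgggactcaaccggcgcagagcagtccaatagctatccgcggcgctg
Mcm6: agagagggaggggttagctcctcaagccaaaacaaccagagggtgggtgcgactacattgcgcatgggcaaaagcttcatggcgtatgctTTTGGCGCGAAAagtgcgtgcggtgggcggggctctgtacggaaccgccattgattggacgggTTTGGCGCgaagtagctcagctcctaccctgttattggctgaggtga
Cdk1: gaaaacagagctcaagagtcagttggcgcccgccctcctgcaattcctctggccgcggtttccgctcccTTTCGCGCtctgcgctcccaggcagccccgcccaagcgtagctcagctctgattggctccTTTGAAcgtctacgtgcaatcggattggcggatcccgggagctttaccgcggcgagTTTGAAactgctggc
Mki67: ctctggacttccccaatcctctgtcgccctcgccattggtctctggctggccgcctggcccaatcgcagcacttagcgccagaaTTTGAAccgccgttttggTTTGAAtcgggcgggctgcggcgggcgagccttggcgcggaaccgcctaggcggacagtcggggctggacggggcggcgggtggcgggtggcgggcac
Top2a: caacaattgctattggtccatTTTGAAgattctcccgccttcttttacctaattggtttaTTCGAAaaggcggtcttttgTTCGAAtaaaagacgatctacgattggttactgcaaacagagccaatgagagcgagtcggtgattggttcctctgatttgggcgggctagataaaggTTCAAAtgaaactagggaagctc
In Mcm5 a pair of E2F matches on opposite strands overlaps, and in Mcm6 such an overlapping pair is followed by a further match at base -47. Cdk1 holds an E2F match at base -131 and CHR matches at bases -71 and -15. Mki67 holds CHR matches at bases -116 and -98, and Top2a holds them at 4 places. Mcm2 has a CHR match at base -70 and no E2F match in these letters.

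No member passed the test, and the mitotic and replication genes lay slightly lower with Tppp3 AAV2 while most G1/S cyclins and kinases lay slightly higher. Of the 37 genes, 35 had enough counts to be tested, and Bub1 and Aurkb did not. None of the 35 had an adjusted p under 0.05 in edgeR's quasi-likelihood test or in DESeq2's Wald test, where 0.0136% and 0.0949% of the 14750 genes tested were called. At an unadjusted p under 0.05 edgeR gave 2 of 35 members, against 7.23% of all genes. The 2 were Mcm2, lower, as were 3.55% of all genes, and Ccnd2, higher, as were 3.67%. With limma's voom 4 members had such a p, and the share of all genes was not taken for that fit. The fold change was negative in 12 of 12 mitotic genes tested, in 12 of 16 replication genes and in 2 of 7 G1/S genes, against 49.1% of all genes. Genes of a list were measured in the same libraries, so their signs are not independent of each other. Some marker lists were also one-sided, negative in 9 of 9 rod genes and positive in 10 of 10 pigment epithelium genes tested. Ganglion cell markers were negative in 5 of 10. The median log2 fold change was -0.27 over the mitotic genes, -0.16 over the replication genes and 0.15 over the G1/S genes, against 0.0030 over all genes. The groups did not overlap in 6 of the 35 members, against 13.9% of all genes. Lower with Tppp3 AAV2 were 5 of them, Mcm2, Mcm4, Mcm5, Gins2 and Aurka, against 7.02% of all genes, and higher was 1, Ccnd2, against 6.92%.

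**Figure D1:**
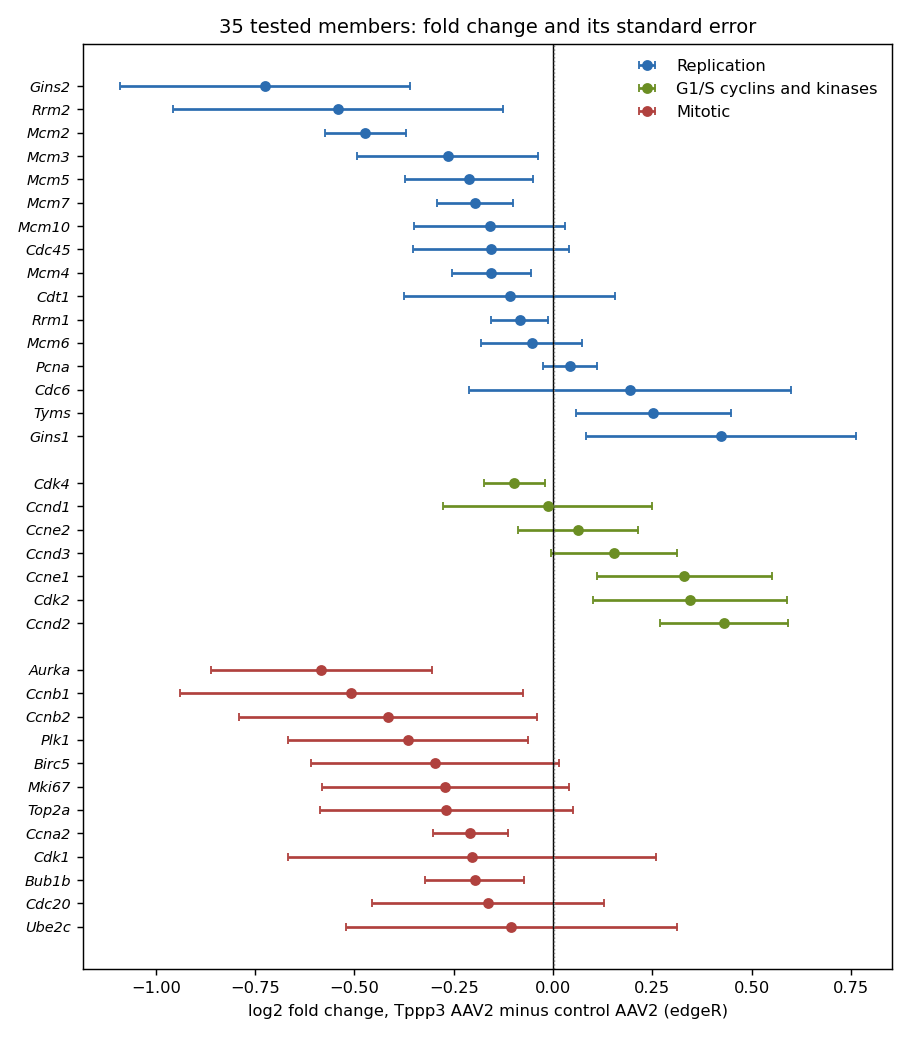
Log2 fold change of each of the 35 tested genes, Tppp3 AAV2 minus control AAV2, from edgeR's fit (points), with its standard error (whiskers), coloured by role. The dotted line marks the median of all genes, 0.0030. All 12 mitotic genes lie left of 0, between -0.58 and -0.11, whereas the G1/S genes run from -0.097 to 0.43.

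Among the replication genes, Mcm2, a subunit of the ring helicase, stood out. Mcm2 had 257, 274 and 259 counts with Tppp3 AAV2, against 203, 261 and 204 counts in the shallower control libraries. Scaled to depth, these were 13.1, 12.4 and 12.3 CPM with Tppp3 AAV2 and 17.9, 16.04 and 18.4 CPM in control retinas. Every Tppp3 library lay below every control library, although the raw counts overlapped. The log2 fold change of Mcm2 was -0.47 ± 0.10 (SE), with an unadjusted p of 7.4e-04 and an adjusted p of 0.639 in edgeR's test. It was 17th among all tested genes by p, and its adjusted p ranged from 0.407 to 0.907 over all settings. With single libraries left out the fold change stayed between -0.53 and -0.43.

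The other helicase subunits lay closer to 0. Mcm4 had 315, 316 and 297 counts with Tppp3 AAV2 and 193, 263 and 179 in control retinas, or 14.8 ± 1.06 and 16.5 ± 0.514 CPM (SD, n = 3 each). Its groups did not overlap, but the gap between the nearest libraries was smaller than the SD of either group. Mcm7 had 451, 469 and 420 counts with Tppp3 AAV2 and 301, 400 and 245 in control retinas, or 21.3 ± 1.5 and 24.4 ± 2.24 CPM (SD, n = 3 each). Its groups overlapped, and its log2 fold change was -0.20 ± 0.096 with an adjusted p of 0.717 in edgeR's test. Mcm5 and Mcm3 stood at -0.21 and -0.27, Mcm6 at -0.054 and Mcm10, which helps to start the helicase, at -0.16. Among all 6 ring subunits and Mcm10, only Mcm2 had an unadjusted p under 0.05 in edgeR's test.

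Among the helicase activators and loaders, Gins2 had the lowest fold change and Gins1 the highest. Gins2, a subunit of the GINS complex, had 90, 107 and 34 counts with Tppp3 AAV2, against 72, 88 and 72 in control retinas. Tppp3 replicate 3 was the lowest library, at 1.61 CPM against 4.57 and 4.83 CPM in the other Tppp3 libraries and 5.41 to 6.51 CPM in control retinas. The log2 fold change of Gins2 was -0.73 ± 0.36 (adjusted p = 0.730 in edgeR's test) and it was -0.37 without Tppp3 replicate 3. In the GENCODE annotation 67.3% of the exon bases of Gins2 are shared with Gse1 on the opposite strand. The kit does not mark strand, so reads of the pair cannot be told apart, and Gse1 had 3963, 4541 and 4060 counts with Tppp3 AAV2 and 2099, 3218 and 1991 in control retinas. Gins1 stood at 0.42, with 27, 44 and 27 counts against 11, 21 and 13, and its groups overlapped at 1.28 CPM in Tppp3 replicate 3 and 1.29 CPM in control replicate 2. Cdc45 stood at -0.16, and the loaders Cdc6 and Cdt1 stood at 0.19 and -0.11 on 8 to 36 and 24 to 61 counts.

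Pcna and the genes of nucleotide synthesis gave fold changes on both sides of 0. Pcna, the sliding clamp of DNA polymerases, which also serves in DNA repair, had 1717, 1801 and 1591 counts with Tppp3 AAV2 and 870, 1372 and 836 in control retinas. This was 81.3 ± 5.85 CPM with Tppp3 AAV2 and 78.9 ± 4.72 CPM in control retinas (SD, n = 3 each), a log2 fold change of 0.042 ± 0.068. Rrm1, the large subunit of ribonucleotide reductase, which makes the building blocks of DNA, stood at -0.084 ± 0.071. Its small subunit Rrm2, whose level is tied to S phase, had 23, 25 and 14 counts with Tppp3 AAV2 and 10, 21 and 24 in control retinas, with a log2 fold change of -0.54 ± 0.42. The Rrm2 values overlapped between the groups, and both the lowest, 0.665 CPM in Tppp3 replicate 3, and the highest, 2.17 CPM in control replicate 3, were single libraries. Tyms, the thymidylate synthase, stood at 0.25 with overlapping groups.

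**Figure D2:**
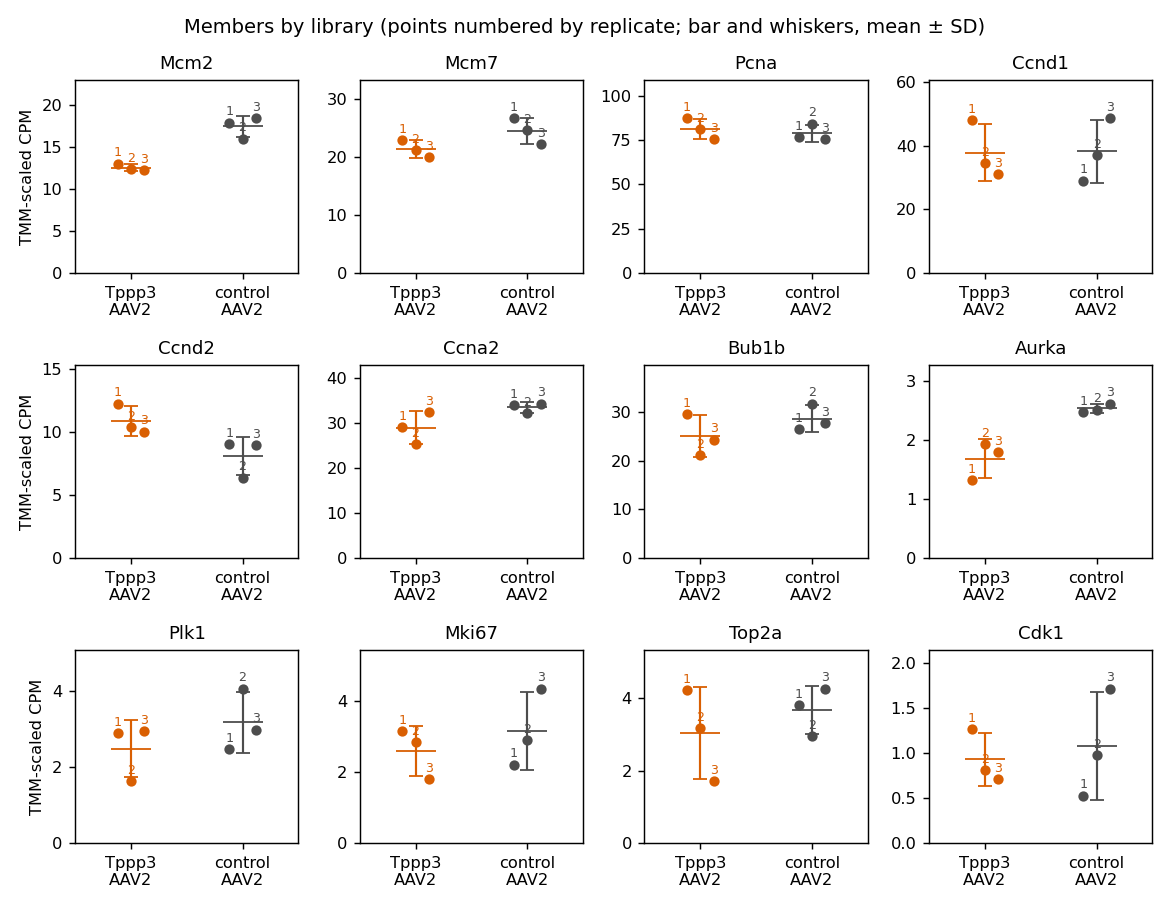
TMM-scaled CPM of 12 genes in each library, Tppp3 AAV2 in orange on the left and control AAV2 in grey on the right. Points carry the replicate number, and bars and whiskers give the mean and SD of 3 libraries. Mcm2, Ccnd2 and Aurka separate the groups, whereas Mki67, Top2a and Cdk1 spread as widely within a group as between groups.

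The cyclins and kinases of the G1/S step were mostly higher with Tppp3 AAV2. Ccnd2, a D-type cyclin, had 241, 230 and 211 counts with Tppp3 AAV2 and 102, 104 and 99 in control retinas. Scaled to depth, these were 12.2, 10.4 and 10.02 CPM with Tppp3 AAV2 and 9.02, 6.39 and 8.95 CPM in control retinas. The groups did not overlap, and the log2 fold change was 0.43 ± 0.16 (SE), with an unadjusted p of 0.0211 and an adjusted p of 0.648 in edgeR's test. Ccne1, an E-type cyclin, had 66, 88 and 98 counts with Tppp3 AAV2 and 34, 57 and 33 in control retinas, with a log2 fold change of 0.33 ± 0.22. Its partner kinase Cdk2 had 51, 89 and 73 counts with Tppp3 AAV2 and 29, 42 and 31 in control retinas, with a log2 fold change of 0.34 ± 0.24. Both overlapped between the groups by small margins, at 3.35 CPM with Tppp3 AAV2 and 3.50 CPM in control retinas for Ccne1.

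The remaining G1/S genes gave small differences, and Ccnd1, Ccnd3 and Cdk4 were the most abundant of the 7. Ccnd1, a D-type cyclin that is also expressed in Müller glia, had 948, 766 and 653 counts with Tppp3 AAV2 and 329, 604 and 538 in control retinas. It ranged from 31.0 to 48.2 CPM with Tppp3 AAV2 and from 29.1 to 48.6 CPM in control retinas, so that libraries of 1 group differed more than the groups, and its log2 fold change was -0.014 ± 0.26. Counting error alone would give Ccnd1 a coefficient of variation of 4.17%, and within groups it was 24.8%. Ccnd3 stood at 0.15 and Ccne2 at 0.063. Cdk4, the kinase partner of D-type cyclins, had 616, 666 and 649 counts with Tppp3 AAV2 and 353, 519 and 393 in control retinas, a log2 fold change of -0.097 ± 0.076. Reads of 5 of the 7 G1/S genes may be shared with a gene on the opposite strand: Cdk4 shares 19.7% of its exon bases with Tspan31, Ccnd1 23.4% with LTO1 and Ccne2 17.4% with Ints8.

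The mitotic genes fell into an abundant pair and a scarce majority. Ccna2, cyclin A2, had 560 to 685 counts with Tppp3 AAV2 and 380 to 523 in control retinas. Scaled to depth, these were 29.1, 25.3 and 32.5 CPM with Tppp3 AAV2 and 33.9, 32.1 and 34.3 CPM in control retinas. The groups overlapped through Tppp3 replicate 3 and control replicate 2, and the log2 fold change of Ccna2 was -0.21 ± 0.095 (unadjusted p = 0.0505, adjusted p = 0.688, edgeR). Bub1b, a spindle checkpoint gene, had 582, 469 and 511 counts with Tppp3 AAV2 and 299, 515 and 306 in control retinas, with a log2 fold change of -0.20 ± 0.12. Per kilobase of the longest annotated coding transcript, Ccna2 and Bub1b averaged 10.5 and 7.30 CPM over the 6 libraries. The other 12 mitotic genes lay between 0.101 CPM per kilobase for Bub1 and 1.29 for Plk1. On the same scale Pcna averaged 52.8 CPM per kilobase, Ccnd3 21.7, Cdk4 15.5, Mcm7 7.73 and Mcm2 4.46.

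Of the scarce mitotic genes, Aurka, a kinase of the spindle poles, was the single member whose groups did not overlap. Aurka had 26, 43 and 38 counts with Tppp3 AAV2 and 28, 41 and 29 in control retinas. At the deeper sequencing of the Tppp3 libraries these were 1.32, 1.94 and 1.80 CPM, against 2.48, 2.52 and 2.62 CPM in control retinas. Aurka thus stood at -0.58 ± 0.28 (log2 fold change ± SE), and edgeR's adjusted p was 0.707. Plk1, a kinase that acts at entry into mitosis and at the spindle, had 57, 36 and 62 counts with Tppp3 AAV2 and 28, 66 and 33 in control retinas, and stood at -0.37 ± 0.30 with overlapping groups.

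Mki67, Top2a and Cdk1 are widely used marks of dividing cells. Mki67 had 62, 63 and 38 counts with Tppp3 AAV2 and 25, 47 and 48 in control retinas, or 2.60 ± 0.705 and 3.15 ± 1.09 CPM (SD, n = 3 each). Top2a, a topoisomerase that untangles replicated chromosomes, had 83, 70 and 36 counts with Tppp3 AAV2 and 43, 48 and 47 in control retinas. Cdk1, the mitotic kinase, had 25, 18 and 15 counts with Tppp3 AAV2 and 6, 16 and 19 in control retinas. The lowest Cdk1 level was in control replicate 1, at 0.530 CPM, and the highest in control replicate 3, at 1.72 CPM, so that both extremes lay in the control group. The log2 fold changes were -0.27 ± 0.31 for Mki67, -0.27 ± 0.32 for Top2a and -0.20 ± 0.46 for Cdk1. Without control replicate 3 those of Mki67 and Cdk1 were 0.016 and 0.25, and without Tppp3 replicate 3 that of Top2a was 0.015.

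The other mitotic genes had few counts. The B-type cyclins Ccnb1 and Ccnb2 had 15 to 29 counts with Tppp3 AAV2 and 10 to 24 in control retinas, and stood at -0.51 ± 0.43 and -0.42 ± 0.38. Birc5, survivin of the chromosomal passenger complex, stood at -0.30 ± 0.31. Cdc20 and Ube2c, which serve the ubiquitin ligase that ends mitosis, stood at -0.16 ± 0.29 and -0.11 ± 0.42. Bub1, the checkpoint kinase, had 4, 6 and 7 counts with Tppp3 AAV2 and 5, 9 and 3 in control retinas, and Aurkb, the passenger complex kinase, had 9, 4 and 7 counts with Tppp3 AAV2 and 2, 7 and 11 in control retinas. Among the mitotic genes, Ube2c shares 22.8% of its exon bases with Tnnc2, Ccna2 12.5% with Exosc9 and Cdc20 2.8% with Elovl1, each on the opposite strand. The median coefficient of variation within groups was 27.0% over the 12 mitotic genes tested, against 17.5% from counting error alone. The median standard error was 0.31 on the log2 scale over the 12 mitotic genes tested, against 0.19 over the replication genes and 0.16 over the G1/S genes.

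**Figure D3:**
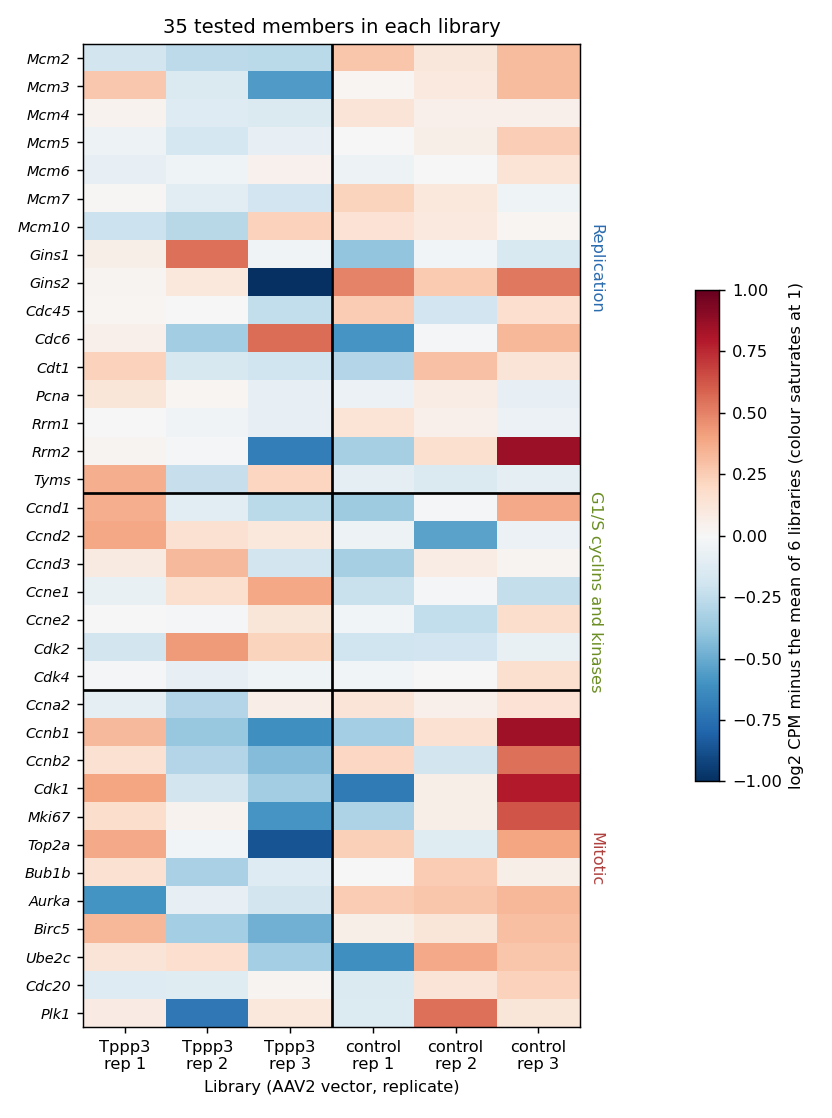
Log2 CPM (prior count 2) of the 35 tested genes in each library minus the gene's mean over 6 libraries, Tppp3 AAV2 left of the vertical line and control AAV2 right of it, grouped by role. Red is above and blue below the mean, and colours saturate at 1. Among the mitotic genes, control replicate 3 holds the highest value of 8 of 12 and Tppp3 replicate 3 the lowest of 5.

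Leaving out single libraries changed the size of the median difference in the mitotic genes, though not its sign. Control replicate 3 held the highest value of 8 of the 12 mitotic genes tested and of 6 of the 16 replication genes. Tppp3 replicate 3 held the lowest value of 5 mitotic and of 9 replication genes. The median deviation of the mitotic genes from their mean over all libraries was 0.15, -0.24 and -0.34 on the log2 scale in Tppp3 replicates 1, 2 and 3, against -0.072, 0.12 and 0.32 in control replicates 1, 2 and 3. Tppp3 replicate 1 thus lay above control replicates 1 and 2, and the groups overlapped. The median log2 fold change of the mitotic genes was -0.27 with all libraries. It was -0.47 without Tppp3 replicate 1, -0.17 without control replicate 3 and -0.20 without Tppp3 replicate 3. The median log2 fold change of the replication genes was -0.099 without Tppp3 replicate 3. Their median deviations ran from -0.12 to 0.027 with Tppp3 AAV2 and from 0.011 to 0.13 in control retinas. For the G1/S genes the median was 0.061 when control replicate 1 was left out, 0.091 when Tppp3 replicate 2 was, and 0.23 when control replicate 2 was.

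In raw counts, replication genes outnumbered mitotic genes in every library by a similar ratio. The 16 replication genes summed to 4469, 4684 and 4252 counts with Tppp3 AAV2 and 2599, 3743 and 2477 in control retinas. The 14 mitotic genes summed to 1575, 1399 and 1511 counts with Tppp3 AAV2 and 892, 1394 and 981 in control retinas. Every Tppp3 sum was above every control sum, as was the depth of the libraries. The ratio of the sums, in which depth cancels, was 2.84, 3.35 and 2.81 with Tppp3 AAV2 and 2.91, 2.69 and 2.53 in control retinas, or 3.00 ± 0.302 and 2.71 ± 0.195 (SD, n = 3 each). These ratios overlapped between the groups. Pcna and Rrm1 gave most of the replication counts, and Ccna2 and Bub1b most of the mitotic counts. Without these 4 genes the ratio was 4.68, 5.46 and 5.93 with Tppp3 AAV2 and 5.90, 4.77 and 4.13 in control retinas, which also overlapped. Between single libraries of a group, the difference of the replication and mitotic median deviations varied by 0.16 on the log2 scale (pooled SD). This SD is not the error of a difference between groups. The median fold change of the replication genes exceeded that of the mitotic genes by 0.11 in edgeR's fit and by 0.19 with limma's voom, an excess that was not tested. In edgeR's fit, leaving out Tppp3 replicate 1 made this excess 0.25, leaving out control replicate 1 made it 0.26, and leaving out control replicate 3 made it 0.036.

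Scaled to depth, the sums leaned the other way from the raw counts. The replication sum was 213 ± 12.7 CPM with Tppp3 AAV2 and 228 ± 3.49 CPM in control retinas (SD, n = 3 each), and the groups overlapped. The mitotic sum was 71.6 ± 8.46 CPM with Tppp3 AAV2 and 84.4 ± 5.03 CPM in control retinas, and overlapped through Tppp3 replicate 1, at 80.02 CPM against 78.9 CPM in control replicate 1. Without Pcna and Rrm1, the other 14 replication genes summed to 99.9, 91.1 and 88.6 CPM with Tppp3 AAV2 and 109.0, 104.4 and 110.0 CPM in control retinas. These sums did not overlap, a trimming chosen after the values were seen. Without Ccna2 and Bub1b, the other 12 mitotic genes summed to 21.3, 16.7 and 15.0 CPM with Tppp3 AAV2. In control retinas they summed to 18.5, 21.9 and 26.7 CPM, and the groups overlapped. The 13 replication genes without exon overlap also overlapped, at 176 to 195 CPM with Tppp3 AAV2 and 190 to 196 CPM in control retinas.

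Markers of non-neuronal cell types were summed in the same way. Microglia markers, such as Cx3cr1 and P2ry12, summed to 162 to 308 CPM over 16 genes with Tppp3 AAV2 and 173 to 293 CPM in control retinas. None of the 16 was at 0, and the fold change was negative in 13, the median being -0.15. Control replicate 1 and Tppp3 replicate 3 held the lowest microglia sum of their groups, and also the lowest sum of the 12 scarce mitotic genes, at 18.5 and 15.0 CPM. Tppp3 replicate 2 held the highest microglia sum of all 6 libraries and a scarce mitotic sum of 16.7 CPM. Astrocyte markers summed over 5 genes to 103.9, 143.1 and 60.2 CPM with Tppp3 AAV2 and 68.9, 123.7 and 125.8 CPM in control retinas. Their sums too were lowest in control replicate 1 and Tppp3 replicate 3 within the groups, and highest in Tppp3 replicate 2. Endothelial and pericyte markers summed to 453 to 620 CPM over 11 genes with Tppp3 AAV2 and 478 to 517 CPM in control retinas, with a median log2 fold change of 0.0064. Müller glia markers summed to 5263 to 6438 CPM over 12 genes with Tppp3 AAV2 and 5187 to 5457 CPM in control retinas. Blood myeloid markers summed to 14.6 to 42.03 CPM over 12 genes with Tppp3 AAV2 and 17.6 to 36.4 CPM in control retinas. The neutrophil genes Ly6g, Camp and Ngp were at 0 in most libraries. Lymphocyte markers summed to 2.08 to 15.7 CPM over 10 genes with Tppp3 AAV2, highest in replicate 2, and to 2.74 to 8.77 CPM in control retinas, with Trbc2 at 0 throughout. Pigment epithelium markers had a positive fold change in all 10 genes tested, with a median of 0.79 on the log2 scale. They summed to 243, 73.6 and 232 CPM with Tppp3 AAV2 and 230, 61.5 and 59.7 CPM in control retinas, high in Tppp3 replicates 1 and 3 and in control replicate 1. The part of these cells in the values of the division genes was not tested.

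**Figure D4:**
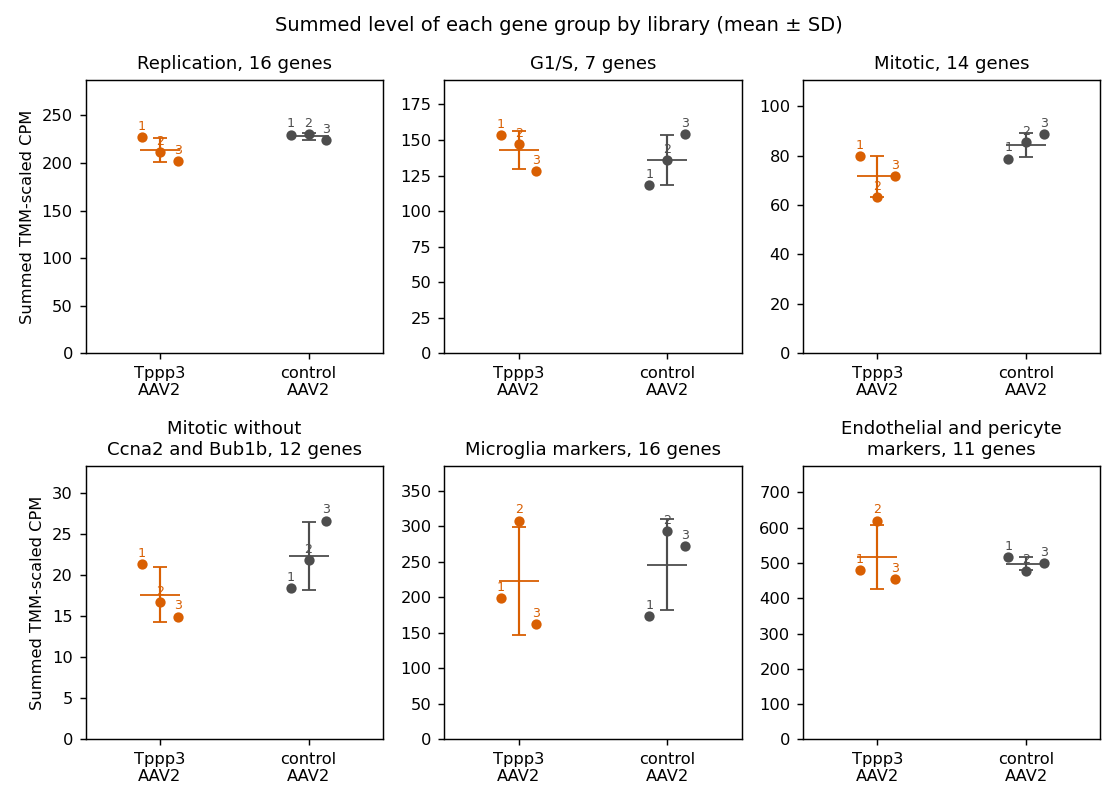
Summed TMM-scaled CPM of each gene group by library, Tppp3 AAV2 in orange on the left and control AAV2 in grey on the right, with points numbered by replicate and bars and whiskers for the mean and SD of 3 libraries. The mitotic sums run from 63.1 to 80.02 CPM with Tppp3 AAV2 and from 78.9 to 88.7 CPM in control retinas. Microglia markers run from 162 to 308 and from 173 to 293 CPM.

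Further genes of the same processes were described from lists of other replication genes, other mitotic genes, cell-cycle brakes and E2F or MuvB regulators. None of their members passed an adjusted p of 0.05 in edgeR's test. Among 37 other replication genes tested, the fold change was negative in 26 and the median was -0.12. Of these, 6 had an unadjusted p under 0.05 and all 6 were lower, against 3.55% of all genes in that direction. Chaf1a, a histone chaperone that assembles nucleosomes behind the fork, had 329, 366 and 388 counts with Tppp3 AAV2 and 302, 370 and 233 in control retinas. Its log2 fold change was -0.45 ± 0.11 and its groups did not overlap, at 17.2 ± 1.05 and 23.5 ± 2.90 CPM (SD, n = 3 each). Rfc2, a subunit of the loader of the Pcna clamp, stood at -0.26 ± 0.073, and Pold2, a subunit of DNA polymerase delta, at -0.31 ± 0.093. Both had groups that did not overlap and adjusted p of 0.639 in edgeR's test. Chaf1a, Rfc2 and Pold2 were named as the members of smallest p in their list. Over the 37 genes the groups did not overlap in 7, all lower, against 13.9% of all genes in either direction and 7.02% lower. The list summed to 718 ± 26.3 CPM with Tppp3 AAV2 and 750 ± 3.94 CPM in control retinas (SD, n = 3 each), and the groups overlapped.

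Among 37 other mitotic genes tested, the fold change was negative in 27, against 49.1% of all genes, and the median was -0.28 in a range of -1.23 to 0.84. An unadjusted p under 0.05 was given to 4, all lower, against 3.55% of all genes in that direction. The groups did not overlap in 7, against 13.9% of all genes. Lower were 5 of them, against 7.02% of all genes, and higher were 2, Ttk and Cdc25b, against 6.92%. Their summed level was 304 ± 21.0 CPM with Tppp3 AAV2 and 309 ± 10.4 CPM in control retinas (SD, n = 3 each), and the groups overlapped. Incenp, the scaffold of the passenger complex, had 550, 461 and 490 counts with Tppp3 AAV2 and 362, 502 and 286 in control retinas, with a log2 fold change of -0.30 ± 0.12. The kinase genes Pbk and Nek2 stood at -1.23 ± 0.49 and -0.83 ± 0.35 on 4 to 12 and 21 to 38 counts.

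Genes that hold the cycle back went different ways. Of 16 brakes, 11 had a positive fold change, with a median of 0.034. In edgeR's test 2 had an unadjusted p under 0.05, against 7.23% of all genes, Cdkn2a lower and Cdkn1b higher. The brakes summed to 619 to 648 CPM with Tppp3 AAV2 and 582 to 613 CPM in control retinas, and these sums did not overlap. Cdkn1b alone held 171 to 182 CPM of the sums with Tppp3 AAV2 and 157 to 161 CPM in control retinas. The brakes without Cdkn1b were not summed, so the separation cannot be laid to the list as a whole. Cdkn2a, which encodes the inhibitors p16 and p19Arf, had 37, 26 and 34 counts with Tppp3 AAV2 and 44, 48 and 52 in control retinas. Its raw counts were lower in every deeper Tppp3 library than in any control library. Cdkn2a stood at -1.30 ± 0.29 (log2 fold change ± SE) with an unadjusted p of 9.3e-04. Its adjusted p was 0.639 in edgeR's test and ranged from 0.220 to 0.907 over all settings. Cdkn1b, the inhibitor p27, had 177 ± 5.85 CPM with Tppp3 AAV2 and 159.1 ± 2.21 CPM in control retinas (SD, n = 3 each), a log2 fold change of 0.16 ± 0.047 with groups that did not overlap. Cdkn2b stood at -0.46 ± 0.34. Among 17 E2F and MuvB regulators tested the median was 0.013. Mybl2, which joins the MuvB complex to switch on mitotic genes, had 47, 66 and 48 counts with Tppp3 AAV2 and 34, 80 and 47 in control retinas, and stood at -0.68 ± 0.25 with groups that did not overlap on the CPM scale. E2f2 and Myc stood at 0.69 ± 0.41 and -0.51 ± 0.38.

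**Figure D5:**
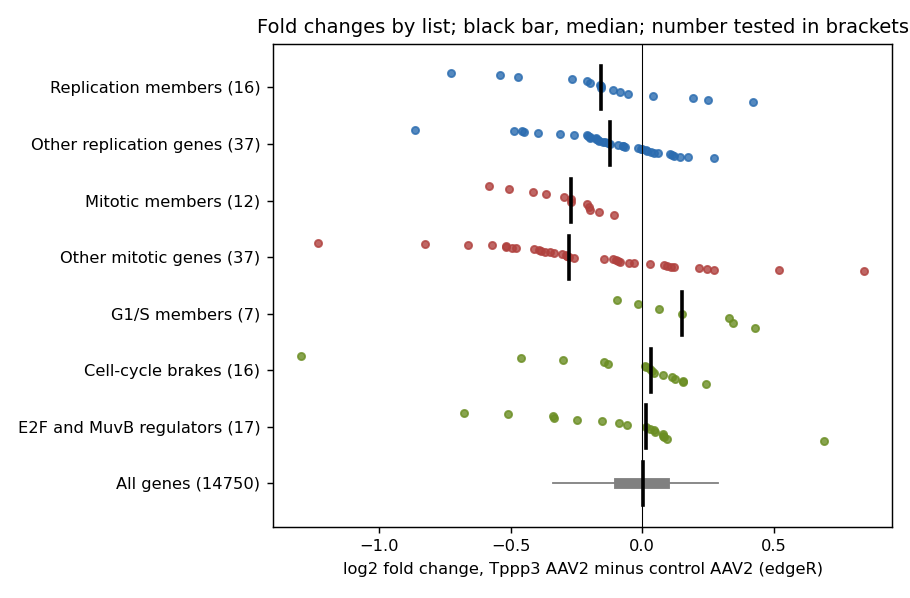
Log2 fold change, Tppp3 AAV2 minus control AAV2, of every tested gene of 7 lists (points), with the median of each list as a black bar and the number tested in brackets. The bottom row gives the middle 50% (thick line) and 90% (thin line, -0.34 to 0.29) of all 14750 genes. The medians are -0.16, -0.12, -0.27 and -0.28 for the replication and mitotic lists and 0.15, 0.034 and 0.013 for the G1/S genes, brakes and regulators.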

How the data were processed

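Poly(A)-selected RNA was sequenced as paired reads of 150 bases from a kit that does not mark strand, per the labels' protocols. The deposited values are raw counts per gene symbol, without normalization, as their column names state per the file headers. The build is GRCm39 (mm39) in the submitters' processing notes. The aligner, counting tool and annotation were not given in the sources used here. By the sample labels there were 3 Tppp3 AAV2 and 4 control AAV2 retinas, whereas the treatment protocol gives 4 and 3. The sample labels were followed, and columns were matched to samples by title alone, which left 6 libraries. A control sample with no matching column was not analysed here, and 1 column with a Tppp3 title that matched no sample was left aside, so the Tppp3 AAV2 group may have held a further library. Chi-square statistics per gene between libraries of a group, 4.05 to 13.8, gave no sign of a library entered under 2 names.

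The filter on expression (edgeR's filterByExpr) kept 14750 of 25655 genes. The groups were compared, Tppp3 AAV2 minus control AAV2, by edgeR 4.0.16 in R 4.3.3 with TMM scaling and the robust quasi-likelihood F test. Tests were two-sided, with Benjamini-Hochberg adjustment over all genes tested and a threshold of 0.05. Each standard error is the fold change divided by the root of its F value. The procedure was tested on simulated data. Alternatives were DESeq2 1.42.0, limma 3.58.1 (voom), other size factors and filters, thinning to equal depth, a sex covariate, a replicate block and leaving out each library. Exon overlaps and transcript lengths were read from GENCODE vM21 (GRCm38) and no coordinates were carried between builds. Python 3.11.15 with matplotlib 3.10.9 drew the plots.

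The members and lists were chosen with earlier results of these data known, so no list received a test. By the rule for named genes, counts in every library are given for members with an unadjusted p under 0.05, the 4 of smallest p in each role, and Pcna, Ccnd1, Mki67, Top2a and Cdk1, with those of Ccna2 as a range. Other pathway lists name the 3 of smallest p. Counts of further members were added after their values were seen.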

Additional observations from a re-analysis of the deposited data

How the results depend on the processing

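No member passed an adjusted p of 0.05 in edgeR's test or under any of the 14 other settings, and 16 of 489 member fold changes turned sign, in 10 members. Outside the fits that leave out a library it changed in Mcm6, at 0.032 after thinning to equal depth, and in Ccnd1, at 0.0048 with sex, read from Y-linked counts, as a covariate. When each library was dropped in turn, the fold changes spanned -0.093 to 0.0011 for Mcm6, -0.23 to 0.19 for Ccnd1, -0.11 to 0.43 for Cdc6, -0.27 to 0.038 for Cdt1, -0.016 to 0.094 for Pcna, -0.045 to 0.17 for Ccne2, -0.51 to 0.25 for Cdk1, -0.46 to 0.016 for Mki67, -0.58 to 0.015 for Top2a and -0.37 to 0.12 for Ube2c. The cause was not tested.

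Members at an unadjusted p under 0.05 numbered 2 in the edgeR fit, 4 with limma's voom and 4 after thinning, and 1 to 4 with single libraries left out. The share of all genes at such a p was taken for the edgeR fit alone, at 7.23%. Over all genes, 0 were called higher and 2 lower. DESeq2's Wald test called 2 higher and 12 lower, limma's voom 0 lower, no low-count filter 6 lower, thinning 1 lower and the sex covariate 0 lower, and leaving out single libraries gave 0 to 2 higher and 0 to 1 lower. Tppp3 passed with DESeq2's Wald test at a log2 fold change of 0.94, and dropping each library in turn gave 0.76 to 1.10.

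Dropping each library in turn, the medians spanned -0.22 to -0.099 (replication), 0.061 to 0.23 (G1/S) and -0.47 to -0.17 (mitotic), and replication minus mitotic spanned 0.036 to 0.26. Without genes whose exons overlap another gene, chosen after seeing the data, the G1/S median was 0.38 over Ccnd2 and Ccne1. The replication median was then -0.11 and the mitotic median -0.30, further apart than with all members. With the replicate number as a block, 1 gene was called lower and the mitotic median was -0.29; same-numbered libraries of the groups correlated at -0.029, 0.051 and -0.26 in their deviations, so the numbers were not taken to pair them. The median coefficient of variation within groups was 27.0% for mitotic and 14.1% for replication genes, and counting alone would give 17.5% and 10.95%.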
